A study of Mus musculus with 14 samples.

Results

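The genes described are the growth hormone receptor gene Ghr, the signal transducers Stat5a and Stat5b, the mammary transcription factor Elf5, and the feedback inhibitors Cish, Socs1, Socs2 and Socs3. They were chosen by name, together with the prolactin receptor gene Prlr, as the core of prolactin and growth hormone signalling through STAT5. Of the 9 genes, 8 have a probe set that carries their symbol alone, 20 probe sets in all, among 18193 genes named on the array. Prlr was not analysed here. Each gene was read by its brightest probe set, the one with the highest mean over the 14 arrays, and its other probe sets are given beside it.

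Mammary glands came from female C57BL/6 mice that were 11 to 12 weeks old on arrival and had their ovaries removed 7 days before treatment, so that every group, vehicle included, lacked ovarian estrogen. The animals received vehicle, 17-beta-estradiol (E2), a blocker of estrogen receptors, or E2 and a blocker at the same time, and the glands were taken 3 h later. The blockers were acolbifene, raloxifene and tamoxifen, which are nonsteroidal, and the steroidal fulvestrant. Of the 10 groups, 4 were hybridised to 2 arrays (vehicle, E2, acolbifene, E2+acolbifene). A single array was made for each of the remaining 6: fulvestrant, raloxifene and tamoxifen, alone and with E2. Glands of the 8 mice of a group were pooled. The labels do not say whether both arrays of a group were made from 1 pool, so the spread that the p-values rest on may be technical. The series asks how 4 blockers alter the response of genes that E2 modulates.

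Prolactin and growth hormone bind class I cytokine receptors, which have no kinase of their own and signal through an attached JAK kinase. The kinase phosphorylates STAT5A and STAT5B, which pair, enter the nucleus and bind DNA at palindromic sites. In the mammary gland this pathway drives the growth of alveoli and the making of milk proteins, with STAT5A the main form and Elf5 a further factor of the alveolar programme. CISH and the SOCS proteins are induced by STATs and shut the receptors down again: CISH and SOCS2 act mainly at receptors that use STAT5, SOCS3 mainly at receptors that use gp130 and STAT3, and SOCS1 on JAK kinases.

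The promoter sequences of these genes are shown for the letters of the STAT palindrome and of the hexamer that estrogen receptors recognise, since Stat5a and the STAT-induced inhibitors Cish, Socs2 and Socs3 are the members called after E2. Windows of 300 bases, 250 before and 50 from an annotated start, were taken from the RefSeq sequences of mouse build GRCm38.p6. The windows of Stat5a, Stat5b and Socs3 stop short of the upstream end of the locus. Socs2 had no window and was not searched. In all, 14 windows matched 8 of the 9 genes. They were searched on both strands for TTCNNNGAA (STAT), for the full estrogen response element (GGTCA and TGACC with any 3 bases between them), for the hexamer AGGTCA and for TGANTCA (AP-1). The Cish window held 2 STAT motifs within the first 20 transcribed bases, at chr9:107296655-107296682 on the plus strand. The Socs3 window held 1, at chr11:117969477-117969536 on the minus strand, and 1 of the 3 Prlr windows also held 1. In the lines below these motifs are in capitals.
Cish: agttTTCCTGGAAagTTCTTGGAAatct
Socs3: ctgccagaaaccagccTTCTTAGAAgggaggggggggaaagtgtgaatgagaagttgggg

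Among all 32851 windows of the same length 8.3% held the STAT motif and 0.457% held it 2 or more times. The AP-1 motif was in 7.81% of all windows and in 1 window each of Ghr and Prlr. The full estrogen response element was in 0.07% of all windows and in none of the members' windows, which says only that these letters are not in those windows.

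Stat5a and Stat5b lie next to each other on chromosome 11. Stat5a is at chr11:100859351-100885169 on the plus strand and Stat5b at chr11:100780731-100859004 on the minus strand. The upstream end of each locus lies beyond the starts printed below. Of those printed, the upstream starts of the 2 genes are 9075 bases apart. The genes are printed side by side because they code for closely related proteins and only Stat5a was called after E2. The 100 bases before each start follow, with the hexamer AGGTCA or its reverse complement TGACCT in capitals. The Stat5a starts are those at chr11:100859556-100859655 and chr11:100860384-100860483, and the Stat5b starts those at chr11:100822571-100822670 and chr11:100850582-100850681.
Stat5a upstream start: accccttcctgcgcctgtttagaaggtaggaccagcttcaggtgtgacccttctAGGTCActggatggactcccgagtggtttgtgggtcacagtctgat
Stat5a downstream start: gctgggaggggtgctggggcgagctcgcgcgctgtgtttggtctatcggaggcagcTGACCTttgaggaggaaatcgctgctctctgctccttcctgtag
Stat5b downstream start: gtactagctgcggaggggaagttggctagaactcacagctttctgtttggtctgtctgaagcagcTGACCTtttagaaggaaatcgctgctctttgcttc
Stat5b upstream start: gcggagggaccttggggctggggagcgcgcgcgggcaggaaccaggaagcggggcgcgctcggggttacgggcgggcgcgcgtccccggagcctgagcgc

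Both Stat5a windows and the downstream Stat5b window held the hexamer, which 16.3% of all windows hold. The downstream starts of the 2 genes share a run of 16 bases before the start, and the upstream Stat5b window held none of the motifs searched.

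All 14 array medians were within 7.16 to 7.23 (log2). Spike-in controls had means of 10.23 to 10.41 in the vehicle, acolbifene and E2+acolbifene pairs, and of 9.86 to 10.04 in the E2 pair and the 6 unreplicated groups. Spike-in level and treatment therefore cannot be told apart in the comparisons of E2 with vehicle and with E2+acolbifene, nor in the differences of E2 effects. The same holds for the unreplicated groups against vehicle and for acolbifene against another blocker, with or without E2. The raw-file code does not remove it, as both E2 arrays were low (10.01 for R136 and 10.04 for R137). The excess of the 3' over the 5' Actb control, a sign of RNA quality, was 0.41 and 0.43 log2 units with E2, 0.28 and 0.24 with vehicle, 0.30 and 0.25 with acolbifene and 0.30 and 0.31 with E2+acolbifene. Spike-in means were alike between E2+acolbifene (10.38 and 10.23) and acolbifene (10.41 and 10.36), and between E2+fulvestrant (9.98) and fulvestrant (10.0). The raw files carry the codes R136 and R137; R136 marks the first E2 array and the 6 unreplicated groups, and R137 the other 7 arrays. The file name of the raloxifene array shares its sample code with those of the E2+acolbifene arrays. Over all probe sets its values correlated most highly with fulvestrant (r = 0.997), tamoxifen (0.9968), E2+fulvestrant and E2+raloxifene (0.9967 each), all R136 like itself. The E2+acolbifene arrays came next (0.9958 and 0.9955), above the R136 arrays E2 array 1 (0.9953) and E2+tamoxifen (0.9952), and above vehicle (0.9942 and 0.994). Correlations that follow the raw-file code cannot check the label, which was not tested. The median of skeletal muscle markers differed between the E2 arrays, 8.60 and 9.78, and ran from 7.80 to 10.16 over all arrays. Luminal epithelial markers had medians of 9.80 to 10.20, with 12 of 12 above the level called dim, 6.65, below which the dimmest 40% of probe sets lie. Pgr, the progesterone receptor gene and a classical estrogen target, was at 8.05 and 7.57 with vehicle and 10.59 and 10.55 with E2. It stood at 10.55 with E2+fulvestrant and 7.88 with fulvestrant alone. Without E2 it was 8.81 and 8.38 with acolbifene, 9.41 with raloxifene and 9.57 with tamoxifen. With E2 added these became 9.62 and 9.60, 10.07 and 10.59. The other Pgr probe sets, with dim means of 5.62 and 6.06, differed after E2 by 0.52 and 0.17 (limma adjusted p = 0.04 and 0.426).

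**Figure D1:**
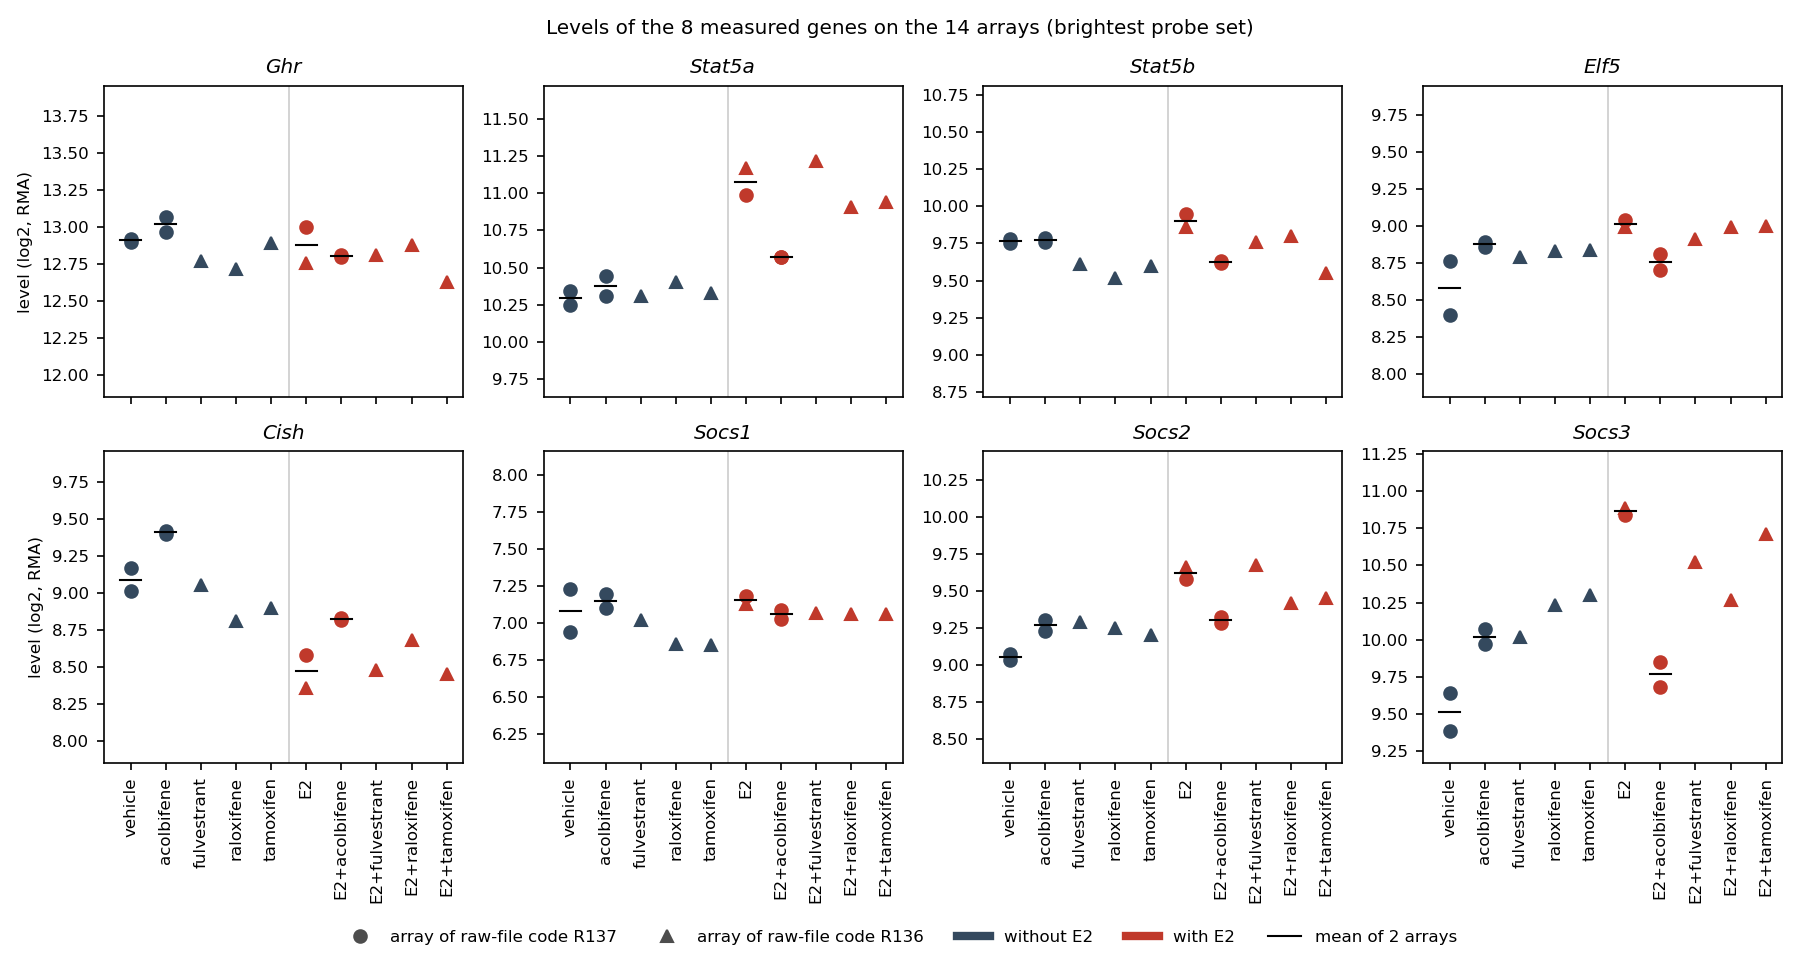
Deposited log2 level (RMA) of the 8 measured genes at their brightest probe set on each of the 14 arrays, by treatment group, with groups without E2 in blue and with E2 in red; circles are R137 arrays, triangles R136 arrays, and bars the means of 2 arrays. Every panel spans the same log2 height. Stat5a lies at 10.25 to 10.44 on all arrays without E2 and at 10.91 or more on the E2 arrays without acolbifene, and Cish shows the opposite order. Of all probe sets 1.18% lie apart between these arrays, in either direction.

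The genes differed widely in how much they varied over the 14 arrays. The range of Socs3 was 1.51 log2 units, wider than that of 99.6% of all probe sets, that of Cish 1.06 (98.3%) and that of Stat5a 0.97 (97.5%). Elf5 (0.65) and Socs2 (0.64) were above 83.7% and 82.8% of probe sets. The ranges of Ghr (0.45), Stat5b (0.43) and Socs1 (0.37) were at or below the middle of the array, at the 46.1, 41.1 and 26.2 percentiles.

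After 3 h of E2, Stat5a, Socs2 and Socs3 rose against vehicle and Cish fell, 4 of 8 genes, where 3.74% of all 45037 probe sets were called in either direction, 2.07% higher and 1.67% lower (limma, Benjamini-Hochberg over all probe sets, adjusted p under 0.05). Stat5b, Socs1, Ghr and Elf5 were not called at their brightest probe sets. Of the 20 probe sets 10 were called higher and 1 lower. In pooled glands a change in the share of a cell type and a change in RNA per cell cannot be told apart. Of the marker lists, 3 of 12 luminal markers were called higher and 2 lower, 3 of 16 skeletal muscle markers higher, 2 of 12 macrophage markers lower and 3 of 10 basal markers higher. Adipocyte markers had 1 of 11 higher and 2 lower, lymphocyte markers 2 of 11 lower, fibroblast markers 1 of 8 higher, and endothelial (9) and keratinocyte (10) markers 0 called, with 1 and 3 at an unadjusted p under 0.05. Their part in the members' changes was not tested.

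Ghr, the growth hormone receptor gene, ran from 12.63 with E2+tamoxifen to 13.07 on acolbifene array 1. It was at 12.90 and 12.92 with vehicle, at 12.76 on E2 array 1 and 0.24 higher on E2 array 2. The groups with and without E2 overlapped. Its E2 minus vehicle difference was -0.03 ± 0.10 (SE; 95% interval -0.24 to 0.19; limma adjusted p = 0.917). The other Ghr probe sets had differences of -0.22 and -0.34 (adjusted p = 0.237 and 0.0971).

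Stat5a, the mammary form of STAT5, stood at 10.34 and 10.25 with vehicle and at 11.17 and 10.99 with E2. Acolbifene alone gave 10.44 and 10.31, fulvestrant 10.31, raloxifene 10.40 and tamoxifen 10.33. With E2 and a blocker it was 10.57 and 10.57 for acolbifene, 11.22 for fulvestrant, 10.91 for raloxifene and 10.94 for tamoxifen. All 7 arrays with E2 were above all 7 without, and the E2+acolbifene pair was the lowest of those with E2. The share of all probe sets that separate in this way was not counted. At the other Stat5a probe set the arrays overlapped, with E2+acolbifene array 2 at 9.45 and acolbifene array 1 at 9.46. E2 raised Stat5a by 0.79 ± 0.09 log2 units (1.73-fold; 95% interval 0.58 to 1.00; limma adjusted p = 0.0012). The other probe set gave 0.97 (adjusted p = 0.000416).

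Stat5b, its neighbour and close relative, ran from 9.52 with raloxifene to 9.95 on E2 array 2. Vehicle was at 9.78 and 9.75 and E2 at 9.86 and 9.95, and arrays with and without E2 overlapped. The E2 minus vehicle difference was 0.13 ± 0.08 (95% interval -0.05 to 0.32; limma adjusted p = 0.404), and -0.02 at the other probe set. Whether the E2 responses of the 2 genes differ was not tested; their 95% intervals, 0.58 to 1.00 and -0.05 to 0.32, did not overlap.

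Elf5, which directs the alveolar lineage, was at 8.76 and 8.40 with vehicle and at 8.99 and 9.04 with E2. Acolbifene gave 8.89 and 8.86, E2+acolbifene 8.81 and 8.70, and the other blockers alone 8.79 to 8.84. The 3 remaining combinations lay between 8.91 and 9.04, as did the E2 pair. The E2 arrays without acolbifene were thus above the arrays without E2, the highest of which was at 8.89. Of all probe sets 1.18% lie apart between these arrays, in either direction. The difference between E2 and vehicle, 0.44 ± 0.11, did not pass (limma adjusted p = 0.0596), and the vehicle arrays were 0.36 apart. Left without vehicle array 2, the lower of them, the difference was 0.26 (adjusted p = 0.273), and without vehicle array 1 it was 0.62 and passed (adjusted p = 0.0325). It also passed with dim probe sets left out (adjusted p = 0.0385), with an intensity trend in the fit (adjusted p = 0.0208) and as the mean of both probe sets (0.52, adjusted p = 0.00648). The dimmer Elf5 probe set rose by 0.60 (adjusted p = 0.0144).

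Cish, the STAT5-induced inhibitor whose start region holds the paired STAT motifs printed above, stood at 9.17 and 9.01 with vehicle and 8.36 and 8.58 with E2. It was highest with acolbifene alone, at 9.40 and 9.42, and was 9.05 with fulvestrant, 8.90 with tamoxifen and 8.81 with raloxifene. With E2 it was 8.82 and 8.83 for acolbifene, 8.48 for fulvestrant, 8.68 for raloxifene and 8.45 for tamoxifen. The 5 arrays with E2 and no acolbifene were below the 7 arrays without E2. Of all probe sets 1.18% lie apart between these arrays, in either direction. Cish fell by 0.61 ± 0.10 log2 units after E2 (1.53-fold lower; 95% interval -0.83 to -0.39; limma adjusted p = 0.00741). The call was lost without E2 array 1 (-0.50, adjusted p = 0.0758) and without vehicle array 1 (-0.53, adjusted p = 0.084). It is the only member that fell, and it has a single probe set.

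Socs1, the JAK inhibitor, was the dimmest member, from 6.85 with tamoxifen to 7.23 on vehicle array 1. The vehicle arrays (7.23 and 6.94) enclosed the E2 arrays (7.13 and 7.18). Its E2 minus vehicle difference was 0.07 ± 0.10 (95% interval -0.16 to 0.30; limma adjusted p = 0.756).

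Socs2, the growth hormone pathway inhibitor, was at 9.03 and 9.07 with vehicle and at 9.66 and 9.58 with E2. It was 9.23 and 9.30 with acolbifene, 9.29 with fulvestrant, 9.25 with raloxifene and 9.20 with tamoxifen. In combination with E2 it was 9.32 and 9.28 for acolbifene, 9.67 for fulvestrant, 9.42 for raloxifene and 9.45 for tamoxifen. The 5 E2 arrays without acolbifene were above the 7 arrays without E2. Of all probe sets 1.18% lie apart between these arrays, in either direction. For Socs2 both vehicle arrays were also below all 12 others (6.24% of all probe sets have the 12 on 1 side of both). E2 raised it by 0.57 ± 0.09 (1.49-fold; 95% interval 0.39 to 0.76; limma adjusted p = 0.0044), a call that just missed the threshold without E2 array 1 (0.53, adjusted p = 0.0502). Of its 5 other probe sets 3 rose, by 0.87, 0.60 and 0.41 (adjusted p = 0.00119, 0.0388 and 0.0407), and the 2 dimmest differed by 0.31 and 0.03 (adjusted p = 0.242 and 0.889).

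Socs3, the inhibitor of gp130 receptors, changed most among the members. It was at 9.38 and 9.64 with vehicle and at 10.89 and 10.84 with E2. Blockers alone gave intermediate levels: 10.07 and 9.97 with acolbifene, 10.02 with fulvestrant, 10.23 with raloxifene and 10.30 with tamoxifen. With E2 they gave 9.68 and 9.85 for acolbifene, 10.52 for fulvestrant, 10.27 for raloxifene and 10.71 for tamoxifen. All 12 arrays of the other groups were above both vehicle arrays, the E2+acolbifene pair being the closest to them. Of all probe sets 6.24% have the 12 on 1 side of both. E2 raised Socs3 by 1.36 ± 0.11 (2.56-fold; 95% interval 1.12 to 1.59; limma adjusted p = 6.25e-05). Its probe set is of a type whose probes can match other transcripts; the Socs3 probe set without that mark rose by 0.82 and the third by 1.01 (adjusted p = 0.000473 and 0.000472).

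**Figure D2:**
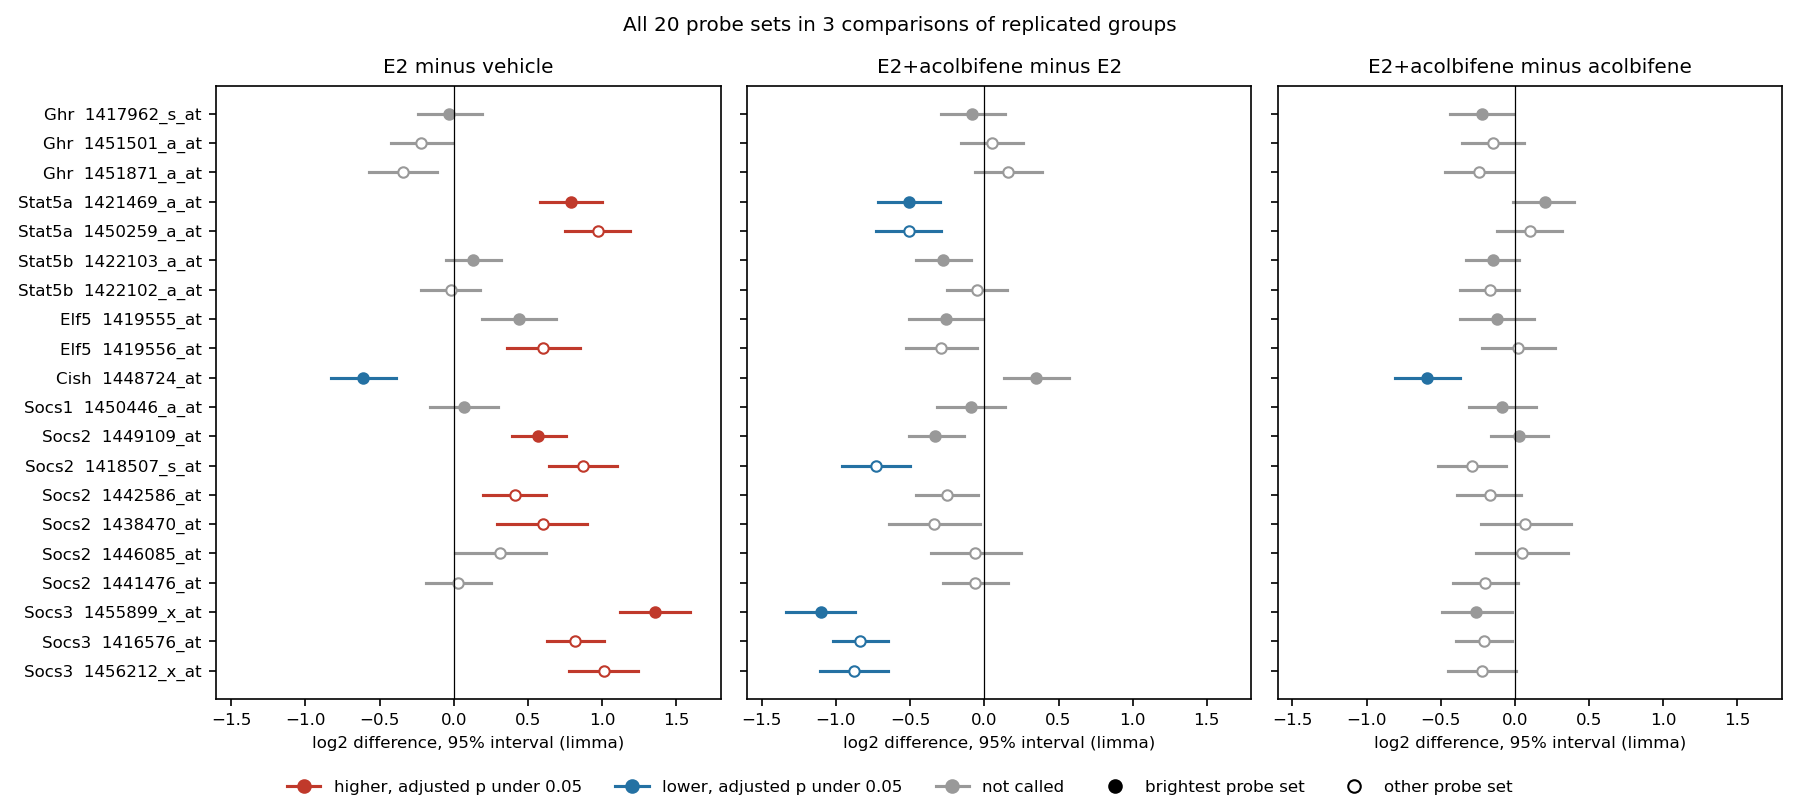
Log2 differences (points) with 95% intervals from limma for all 20 probe sets in 3 comparisons of replicated groups, in red where called higher, blue where called lower and grey where not called; filled points are the brightest probe set of a gene. After E2, both Stat5a and all 3 Socs3 probe sets were called higher. In E2+acolbifene against E2 the same 5 were called lower together with 1 Socs2 probe set. Cish is the only gene called in E2+acolbifene against acolbifene, where 9.2% of all probe sets were called.

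Acolbifene alone changed no member past the threshold (0 of 8, with 0.597% of all probe sets called by limma, 0.406% higher and 0.191% lower, and 4 of 8 at an unadjusted p under 0.05). The largest differences from vehicle were 0.51 ± 0.11 for Socs3 (adjusted p = 0.0612) and 0.33 ± 0.10 for Cish (adjusted p = 0.159). Cish had the sign opposite to that after E2, and both acolbifene arrays were above both vehicle arrays. Socs3 did pass in 3 alternative settings given in the closing section. Of the markers, Itgam, Cd14 and Cd163 of macrophages were called higher with acolbifene alone (0.77, 0.57 and 0.51), as was Myh1 of skeletal muscle (2.89). Krtdap and Krt10 of keratinocytes were called lower (-0.72 and -0.59). The macrophage median was 10.50 and 10.48 with vehicle and 10.62 and 10.60 with acolbifene. The part of these cell types was not tested.

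With acolbifene beside E2, Stat5a and Socs3 fell below their level with E2 alone, 2 of 8 genes against 3.66% of all probe sets (1.63% higher and 2.03% lower). Stat5a was lower by -0.51 ± 0.09 (adjusted p = 0.0237 by limma) and by the same -0.51 at the other probe set (adjusted p = 0.0259). Its call was lost when any array of the pairs compared was left out, with an adjusted p of up to 0.12. Socs3 was lower by -1.10 ± 0.11 (2.15-fold; adjusted p = 0.000945), and its other probe sets by -0.84 and -0.88 (adjusted p = 0.00156 and 0.00328). Socs2 had a difference of -0.33 (adjusted p = 0.0571) at the brightest probe set and -0.73 (adjusted p = 0.00863) at the next. Cish was 0.35 above its E2 level (adjusted p = 0.0713). Spike-in level and Actb 3' excess move with this comparison as they do with E2 against vehicle, and their part was not tested. It shares the E2 arrays with that of E2 against vehicle, so their opposite signs are not independent.

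Set against vehicle, E2+acolbifene left no member called (0 of 8, with 0.837% of all probe sets called by limma, 0.453% higher and 0.384% lower, and 4 of 8 members at an unadjusted p under 0.05). Stat5a differed by 0.28 (95% interval 0.07 to 0.48), Socs3 by 0.26 (0.02 to 0.49), Socs2 by 0.25 (0.06 to 0.43) and Cish by -0.26 (-0.48 to -0.05).

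Set against acolbifene alone, Cish was the only member called on adding E2, and fell by 0.59 ± 0.10 (limma adjusted p = 0.0136). That is 1 of 8, with 3 of 8 at an unadjusted p under 0.05. Of all probe sets 9.2% were called, 3.52% higher and 5.67% lower. A count of 1 in 8 is close to that share and is not read as a result about the members. The call was lost without acolbifene array 1 (adjusted p = 0.0754) or without either E2+acolbifene array (adjusted p = 0.0573 and 0.105). Stat5a differed by 0.20 (95% interval -0.01 to 0.40), Socs2 by 0.03 (-0.16 to 0.22) and Socs3 by -0.26 (-0.49 to -0.02). In the same comparison 8 of 12 macrophage markers were called lower, their median being 10.62 and 10.60 with acolbifene and 10.04 and 10.04 with E2+acolbifene. At the same time 6 of 16 skeletal muscle and 5 of 10 keratinocyte markers were called higher; the part of these cell types in the Cish difference was not tested.

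The E2 effect with acolbifene present was then tested against the E2 effect without it. It was lower for Socs3 by -1.62 ± 0.15 log2 units (limma adjusted p = 0.00077), for Stat5a by -0.59 ± 0.13 (adjusted p = 0.0373) and for Socs2 by -0.54 ± 0.12 (adjusted p = 0.0355), 3 of 8 members where 4.47% of all probe sets were called, 1.55% higher and 2.92% lower. For Cish the E2 effects were -0.59 and -0.61, and their difference was 0.02 with a 95% interval of -0.29 to 0.33 (adjusted p = 0.932). Elf5 had a difference of -0.55 (adjusted p = 0.0698), which passed in the same 3 alternative settings (adjusted p = 0.0249 to 0.0469). Leaving out 1 of the 8 arrays ended the Socs2 call in each case (adjusted p up to 0.116) and the Stat5a call in each case but that of acolbifene array 2 (adjusted p = 0.0461, otherwise up to 0.113), while Socs3 remained called without any 1 of the 8 arrays.

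**Figure D3:**
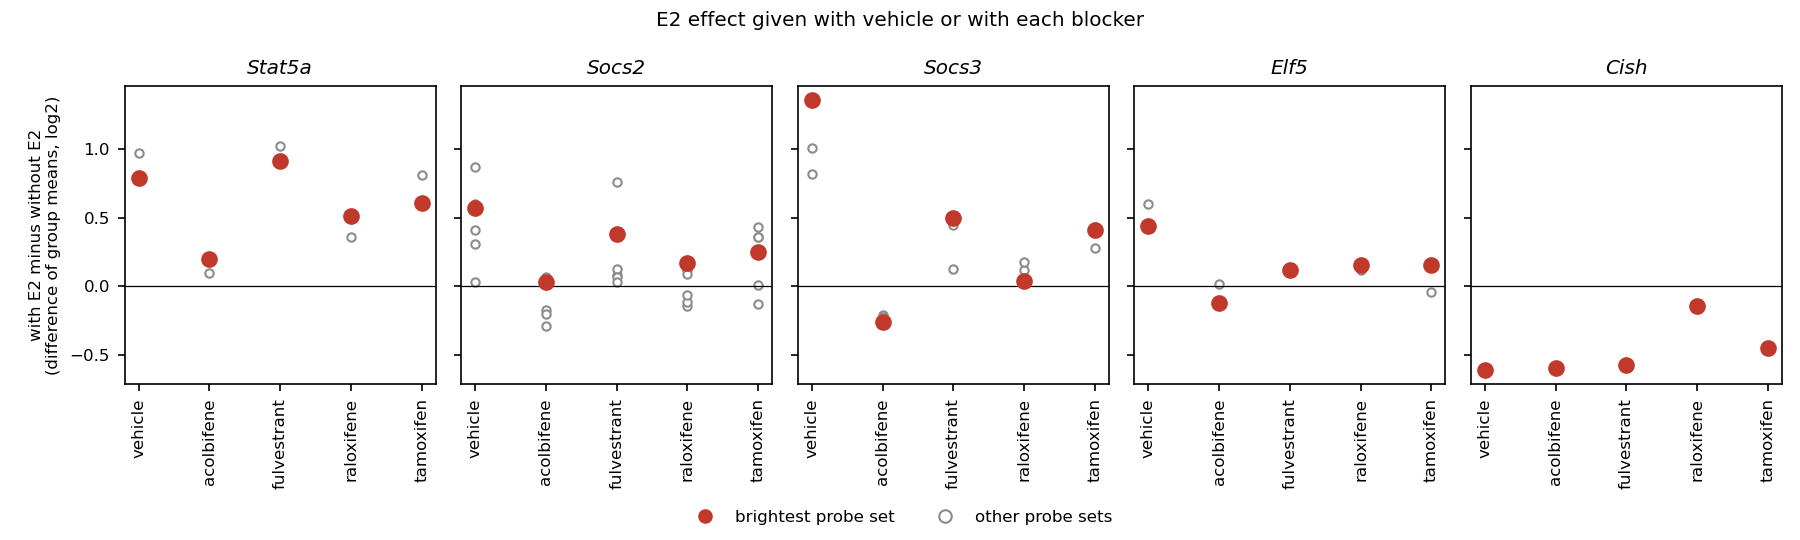
Difference between group means with and without E2 (log2), when E2 was given with vehicle or with each of the 4 blockers, for the 5 genes whose E2 arrays without acolbifene lie apart from the arrays without E2 at 1 or more probe sets; red points are the brightest probe set and open points the others. Only the vehicle and acolbifene columns rest on 2 arrays per group. The brightest Stat5a probe set falls to 0.20 with acolbifene and is at 0.51 to 0.91 with the other blockers. The other Stat5a probe set is at 0.10 with acolbifene and at 0.36 to 1.02 with the other blockers. Cish stays at -0.59 with acolbifene and is -0.14 with raloxifene.

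The other blockers had 1 array each, with and without E2, and were compared in a fit of all 14 arrays that holds the raw-file code as a term and assumes that a lone array varies like the replicated groups. From fulvestrant to E2+fulvestrant the marker median went from 6.50 to 7.74 for keratinocytes and from 10.60 to 10.13 for macrophages. For skeletal muscle it went from 10.09 to 9.36 and for luminal epithelium from 10.12 to 10.06. The part of these cell types in the differences below was not tested. Stat5a was the only member called in these 27 comparisons. It rose by 0.91 ± 0.13 between fulvestrant and E2+fulvestrant (1.88-fold; limma adjusted p = 0.0191; 0.384% of all probe sets called, 0.222% higher and 0.162% lower), and by 1.02 at its other probe set (adjusted p = 0.0191). Pgr rose by 2.67 in the same comparison (adjusted p = 0.00228). With tamoxifen the Stat5a difference was 0.61 (adjusted p = 0.144; 0.18% of probe sets called) and with raloxifene 0.51 (adjusted p = 1; 0.0333% called).

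For Cish, adding E2 gave -0.57 with fulvestrant (adjusted p = 0.165), -0.45 with tamoxifen (0.315) and -0.14 with raloxifene (1). For Socs3 it gave 0.50, 0.41 and 0.04 in the same order (adjusted p = 0.411, 0.468 and 1), and for Socs2 0.38, 0.25 and 0.17. None of these passed. The Socs3 E2 effect was lower with raloxifene than without by -1.29 ± 0.21 (adjusted p = 0.0932), with tamoxifen by -0.92 (adjusted p = 0.192) and with fulvestrant by -0.83 (adjusted p = 0.354). Of these 24 differences of E2 effects over 8 members, 0 were called and 4 had an unadjusted p under 0.05; of all probe sets 0.158% were called with fulvestrant, 0.0844% with raloxifene and 0.04% with tamoxifen.

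Over E2 alone, 0 of 24 member differences of E2+fulvestrant, E2+raloxifene and E2+tamoxifen were called (4 at an unadjusted p under 0.05), the largest being -0.62 ± 0.16 for Socs3 with raloxifene (limma adjusted p = 0.352). These rest on E2 array 1 alone, and 0.0222%, 0.0955% and 0.0133% of all probe sets were called. Against vehicle, which the fit reaches only through the E2 pair, 0 of 48 were called (11 at an unadjusted p under 0.05); Socs3 differed by 1.15 with E2+tamoxifen (adjusted p = 0.143). The share of all probe sets called was 0.153% for fulvestrant, 0.00888% for raloxifene and 0.0111% for tamoxifen, and with E2 added 0.111%, 0.0666% and 0.0844%.

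The blockers differ in scaffold, fulvestrant being a steroid with a long side chain, tamoxifen a triphenylethylene, raloxifene a benzothiophene and acolbifene a benzopyran. The sources give no dose for any of them, so doses may differ and each pair compares the treatments as they were administered. All 12 pairs, 6 without and 6 with E2, were tested for each member, and 0 of 96 differences were called (limma, adjusted over all probe sets; 5 at an unadjusted p under 0.05). Without E2 the share of all probe sets called was 0.0977% for acolbifene against fulvestrant, 0% against raloxifene and 0.00222% against tamoxifen, 0.0333% for fulvestrant against raloxifene, 0.0466% against tamoxifen, and 0.00222% for raloxifene against tamoxifen. With E2 these shares were 0.00444%, 0.0111%, 0%, 0.0644%, 0.0289% and 0.102% in the same order. The widest was Socs3 with E2, lower with acolbifene than with tamoxifen by -0.89 ± 0.21 (95% interval -1.36 to -0.43; adjusted p = 1), and than with fulvestrant by -0.71 (-1.17 to -0.24; adjusted p = 0.718). Stat5a with E2 was lower with acolbifene than with fulvestrant by -0.48 (95% interval -0.85 to -0.10; adjusted p = 0.763). Between steroidal fulvestrant and acolbifene without E2, the interval for Stat5a was -0.14 to 0.62 and for Cish -0.23 to 0.52. These intervals are wide, and a missed threshold does not show that the compounds act alike. Pairs with acolbifene also differ in spike-in level, as given above, and its part was not tested.

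The 5 E2 arrays without acolbifene were set apart from the 7 arrays without E2, a grouping chosen after the values were seen. They did not overlap for Stat5a (10.91 to 11.22 against 10.25 to 10.44), Cish (8.36 to 8.68 against 8.81 to 9.42), Socs2 (9.42 to 9.67 against 9.03 to 9.30) and Elf5 (8.91 to 9.04 against 8.40 to 8.89) at their brightest probe sets. Of all probe sets 1.18% do not overlap in this way. Socs3 overlapped at its brightest probe set and not at the other 2. The other Stat5a probe set did not overlap either. The other Elf5 probe set and all other Socs2 probe sets did overlap. The 2 E2+acolbifene arrays fell between the ranges for Stat5a, at 10.57, and within the range of arrays without E2 for Cish, at 8.82 and 8.83.

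Across the 14 arrays, which share the groups and the 2 raw-file codes, Stat5a correlated with Socs2 (r = 0.92) and inversely with Cish (r = -0.84), and Socs2 with Socs3 (r = 0.85). Stat5a and its neighbour Stat5b had r = 0.39. The genes whose level was most like that of Stat5a over the 14 arrays were Prom1 (r = 0.981), Prom2 (0.975) and Ptprf (0.975). Prom1 is 1 of the 12 luminal markers, of which Cldn4 and Ly6d were also called higher after E2 and Cldn3 and Cited1 lower. Those most like Cish were Trim47 (r = 0.957), Ctdsp2 (0.952) and Hcar1 (0.951), those most like Socs2 2310030G06Rik (0.971), Tnfrsf12a (0.963) and Ctns (0.957), and those most like Socs3 Runx1 (0.960), Mmd2 (0.945) and Irx2 (0.926). Spearman's rho of these 12 genes was 0.895 to 0.965. The values are a description and carry no test.

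The kinases and other transducers of the pathway were then read from lists. After E2, 0 of 4 JAK kinases, 0 of 4 other STAT genes measured, 0 of 4 other SOCS genes and 0 of 8 PIAS and phosphatase genes were called (limma; at an unadjusted p under 0.05, 1, 0, 1 and 2). Their median differences were -0.13, -0.10, 0.13 and -0.06, beside -0.02 over all probe sets, of which 3.74% were called. Prl and Gh, which encode the hormones themselves, had mean levels of 5.79 and 7.34 over the arrays. Of 11 ligand genes measured, Lep, which encodes leptin, fell by 0.88 ± 0.10 (adjusted p = 0.000646), and of 17 other cytokine receptors Il10rb, a chain of the interleukin 10 receptor, fell by 0.43 (adjusted p = 0.0173).

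The list of STAT5 targets does not say whether STAT5 raises or lowers a gene, so a rise is not read as more STAT5 activity. Of 16 STAT5 targets, 3 rose after E2 and 0 fell (2.07% and 1.67% of all probe sets), with a median of 0.00. They were Bcl6, a repressor of transcription (0.58, limma adjusted p = 0.00498), and the milk protein genes Csn3 (0.47, adjusted p = 0.017) and Lalba (0.47, adjusted p = 0.0224). Csn2, the beta-casein gene, did not pass, at 6.88 and 6.83 with vehicle and 6.75 and 6.78 with E2. Bcl6 was at 8.41 and 8.40 with vehicle, 9.05 and 8.92 with E2 and 8.47 and 8.40 with E2+acolbifene, lower in the last than with E2 alone by -0.55 (adjusted p = 0.0145).

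Of 17 STAT3 targets 8 rose after E2 and 0 fell, where 2.07% of all probe sets were called higher and 1.67% lower. The median difference of the 17 was 0.39 beside -0.02 over all probe sets. The largest were the AP-1 gene Junb (1.02 ± 0.10, limma adjusted p = 0.000268), the repressor gene Nfil3 (0.91 ± 0.12, adjusted p = 0.0023), Cebpd (0.75 ± 0.09, adjusted p = 0.00129), which encodes a C/EBP factor, and Lcn2 (0.56, adjusted p = 0.0114), which encodes lipocalin 2. Several of these, Junb, Fos and Zfp36 among them, are also immediate-early genes that other signals induce. In E2+acolbifene against E2, 9 of the 17 were lower and 0 higher (2.03% and 1.63% of all probe sets), with a median of -0.45. They were led by Junb (-0.87, adjusted p = 0.00262) and the acute-phase gene Saa3 (-0.85, adjusted p = 0.0275). Acolbifene alone raised 3 of the 17 over vehicle and lowered 0 (0.406% and 0.191% of all probe sets). Nfil3 rose by 0.75, Timp1 by 0.69 and Cebpd by 0.67 (adjusted p = 0.0225, 0.0224 and 0.00946). In E2+acolbifene against acolbifene 9 were lower and 0 higher (5.67% and 3.52% of all probe sets), with a median of -0.41. They were led by Saa3 (-1.43, adjusted p = 0.00396) and Timp1 (-0.85, adjusted p = 0.0056). Macrophage markers were lower in the same comparison, and some were higher with acolbifene alone against vehicle, as given above. Their part in these differences was not tested. The comparisons with E2 alone and the difference of E2 effects share the E2 arrays, with their spike-in level and Actb 3' excess. The difference of E2 effects, with acolbifene minus without, was below 0 and called for 11 of 17 (2.92% of all probe sets, with 1.55% above 0). For Nfil3 it was -1.35 (adjusted p = 0.00485), from E2 effects of -0.44 and 0.91. For Saa3 it was -1.69 (adjusted p = 0.00743), from E2 effects of -1.43 and 0.26, so that the negative effect with acolbifene was the larger in size.

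**Figure D4:**
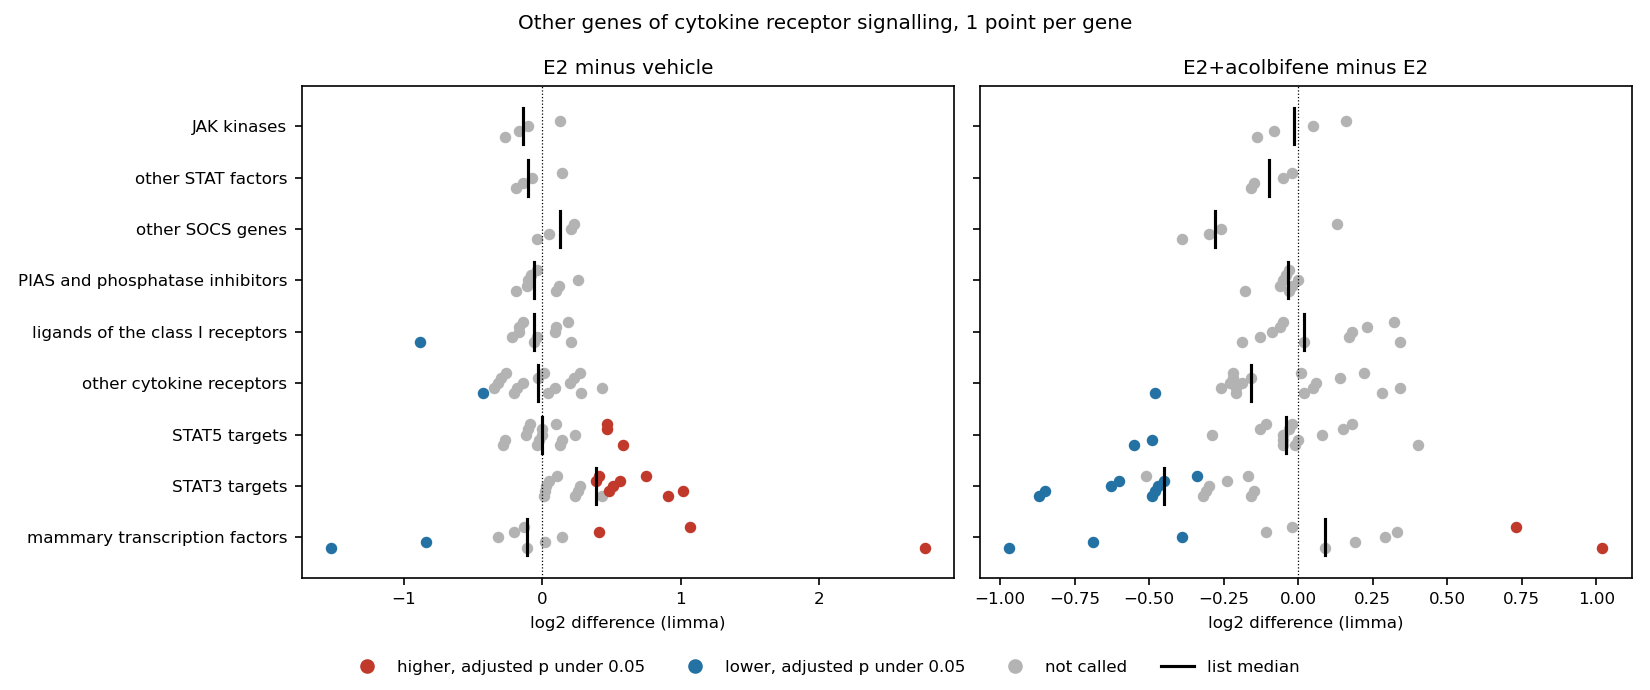
Log2 differences from limma for the other genes of cytokine receptor signalling, 1 point per gene in rows by list, for E2 minus vehicle and for E2+acolbifene minus E2; red and blue points were called higher and lower, and black bars are list medians. The STAT3 targets have medians of 0.39 and -0.45, whereas the JAK kinases lie near 0 in both panels.

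Among 11 transcription factors of the mammary gland, 3 rose and 2 fell after E2 (2.07% and 1.67% of all probe sets). Pgr rose by 2.76 (limma adjusted p = 5.72e-06), Tfap2c, which encodes an AP-2 factor, by 1.07 (adjusted p = 0.00178) and Cebpb, a C/EBP gene needed for alveolar growth, by 0.41 (adjusted p = 0.0307). Foxa1, which encodes a pioneer factor of the estrogen receptor, fell by 1.52 (adjusted p = 0.00118) and Gata3, a luminal regulator, by 0.84 (adjusted p = 0.00441). Elf5, from the same setting of alveolar and luminal fate, is described above.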

How the data were processed

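The deposited values are on the log2 scale, 1 per probe set and array, and come from RMA, as the submitters' processing notes record (per the labels); its version is not given in the sources used here. RMA compresses weak signals. The probe sets are not those of the Murine U74Av2 array that the design text mentions but of the Mouse Genome 430 2.0 array; genes were named by the platform annotation, from probe sets with 1 symbol (34945 of 45037, with 932 of several symbols and 9160 unnamed), after 64 control probe sets were left out. RNA input was 20 ug per array. E2 doses are not printed because their unit is in doubt.

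Every test was a limma fit (version 3.58.1, R version 4.3.3, lmFit and eBayes, Benjamini-Hochberg over 45037 probe sets, adjusted p under 0.05): 6 comparisons in a fit of the 8 replicated arrays with no other term, and 27 in a fit of 14 arrays with the raw-file code, which is estimated from the E2 pair alone. The number of arrays limits the precision. Scripts were tested on simulated data. Pairs were not blocked: same-numbered arrays of different groups had deviations correlated between -0.12 and 0.12. Named genes are the members, Pgr, list genes called in a comparison (up to 4 per list and direction), and the 3 genes most like each called member; Csn2, Fos and Zfp36 were added after their values were seen. Of 203 list genes 190 were measured. Markers of luminal and basal epithelium, adipocytes, skeletal muscle, macrophages, lymphocytes, endothelium, fibroblasts and keratinocytes were among the lists. The members and lists were chosen with earlier results of these data known. Alternatives tried are in the closing section.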

Additional observations from a re-analysis of the deposited data

Results flagged for a closer look

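The E2 effect differed with and without acolbifene for 3 members, by the test of the difference itself in the 8 replicated arrays (limma). The difference was -1.62 log2 units for Socs3, with E2 effects of -0.26 with acolbifene and 1.36 without. For Stat5a it was -0.59, with E2 effects of 0.20 and 0.79. For Socs2 it was -0.54, with E2 effects of 0.03 and 0.57.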

How the results depend on the processing

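No called difference of a member changed sign in any alternative. Counts of members called moved as follows. For E2 minus vehicle the count of 4 became 2 (Stat5a and Socs3) once the fit held the raw-file code, with 8 or 14 arrays, and 2 to 4 when 1 array was left out, the lowest without E2 array 1; it became 5, Elf5 being added, without dim probe sets, with an intensity trend or with the mean of a gene's probe sets. For acolbifene minus vehicle 0 became 1 (Socs3) with dim probe sets left out, with an intensity trend and with the mean of a gene's probe sets. For E2+acolbifene minus E2 the 2 became 1 after a further quantile normalization, with the code or with 14 arrays, 4 without dim probe sets, 5 with the trend, and 1 to 2 when 1 array was left out. For E2+acolbifene minus vehicle 0 became 1 (Stat5a) with the mean of probe sets. For E2+acolbifene minus acolbifene 1 became 2 with the trend or the mean of probe sets, and 0 to 1 with 1 array left out. For the difference of E2 effects 3 became 1 (Socs3) with quantile normalization, the code or 14 arrays, 4 (Elf5 added) without dim probe sets, with the trend or the mean of probe sets, and 1 to 2 with 1 array left out. For the arrays without a replicate, counts against vehicle went from 0 to 4 with the trend, 11 without the code and 0 to 10 with 1 array left out, the highest without either E2 array, a setting that also removes the raw-file code, which only the E2 pair estimates. Against E2 they became 1 with the trend. Against their own blocker 1 became 5 with the trend. Among pairs of blockers 0 became 1 with the trend or without the code, and 0 to 1 with 1 array left out, again 1 without either E2 array and so without the code. Differences of E2 effects became 1 without dim probe sets, without the code or with the mean of probe sets, and 3 with the trend. The cause was not tested.

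With the replicate block the E2 minus vehicle count stayed at 4 and the difference of E2 effects went from 3 to 2, Socs2 being lost (adjusted p = 0.0534); the numbers do not pair the samples. Over all probe sets, 1685 calls for E2 minus vehicle ranged from 430 to 2720, 269 for acolbifene from 27 to 1437, 1649 for E2+acolbifene minus E2 from 116 to 3030, 377 against vehicle from 34 to 1733, 4142 against acolbifene from 38 to 7219, and 2011 for the difference from 186 to 4176.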

Other observations

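Other genes of cytokine signalling separated acolbifene with E2 from acolbifene alone. Of 17 cytokine receptors 8 were lower with E2 (limma; 9.2% of all probe sets called, 5.67% lower), with a median difference of -0.39 beside -0.01 over all probe sets. They included Ifnar1, a chain of the type I interferon receptor (-0.52, adjusted p = 0.0256), Csf3r, the receptor of granulocyte colony-stimulating factor (-0.55, adjusted p = 0.02), Osmr, the oncostatin M receptor (-0.54, adjusted p = 0.0211), and Il10rb (-0.50, adjusted p = 0.0128). Of the other SOCS genes Socs6 (-0.55, adjusted p = 0.0183) and Socs5 (-0.39, adjusted p = 0.0412) fell, and of the other STAT genes Stat2 fell by 0.62 (adjusted p = 0.00926). Macrophage markers were lower in the same comparison, 8 of 12, and their part was not tested.

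Lep was at 10.10 and 10.18 with vehicle and lower on all 12 other arrays, from 8.81 with E2+raloxifene to 10.06 on acolbifene array 1. Of all probe sets 6.24% have the 12 on 1 side of both vehicle arrays. Saa3 and Timp1, both STAT3 targets, were higher with E2+raloxifene than with E2+tamoxifen by 1.68 and 1.18 (limma adjusted p = 0.0169 and 0.0298; 0.102% of all probe sets called), each group being 1 array. Between the same arrays the macrophage marker median was 10.50 against 9.90 and that of skeletal muscle 7.80 against 8.91, and their part was not tested. Socs3 in this pair differed by -0.44 and did not pass.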
